A study of Mus musculus with 9 samples.

Results

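The genes described here are 38 members of the mouse Hox family, 10 in the HoxA cluster, 10 in HoxB, 9 in HoxC and 9 in HoxD, out of 21938 protein-coding genes. They were chosen by name, not by a measured value. Chromatin accessibility at them was measured by ATAC-seq, in which a transposase inserts adapters into open DNA, in primary mouse embryonic fibroblasts (MEFs) at a passage below 8. The groups were WT MEFs (3 libraries), Anp32e null MEFs (3 libraries), Anp32e null MEFs transfected with NT siRNA (1 library) and Anp32e null MEFs transfected with H2A.Z siRNA (2 libraries), so that both siRNA groups carried the null genotype as well. ANP32E is a histone chaperone that removes the histone variant H2A.Z from nucleosomes, and non-targeting (NT) siRNA is the control for the knockdown. The libraries of a group had been merged into 1 peak list by the authors, so each value below comes from 1 list per group, has no replicate error, and no difference between groups could be tested against replicates. Peak lists hold no RNA values, so neither the deletion nor the knockdown could be checked in them.

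Hox genes encode homeodomain transcription factors that give cells their position along the head-to-tail axis and along the limb. They lie in 4 clusters in which the order of the genes follows the order of the body regions they pattern, from the anterior genes with low paralogue numbers to the posterior genes with high numbers. Polycomb proteins keep Hox genes silent where they are not needed, trithorax proteins keep them active, and cultured fibroblasts are known to retain the Hox pattern of the site they came from. Here paralogue groups 1 to 4 are called anterior, 5 to 8 central and 9 to 13 posterior.

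All positions are on mm10. HoxA was taken from Hoxa2 to Hoxa13 (chr6:52162417-52260880, 98.5 kb, all genes on the minus strand), HoxB from Hoxb13 to Hoxb1 (chr11:96194316-96368256, 173.9 kb), HoxC from Hoxc13 to Hoxc4 (chr15:102921103-103036852, 115.8 kb) and HoxD from Hoxd13 to Hoxd1 (chr2:74668310-74765142, 96.8 kb), the last 3 with all genes on the plus strand. A gene was given a promoter peak where a peak came within 1 kb of any of its annotated transcription starts. Each peak was ranked by its fold enrichment, the fragment pileup at its summit over the local background, as a percentile within its own list, with 100 for the strongest peak. Where 4 values follow each other they are in the order WT, Anp32e null, NT siRNA, H2A.Z siRNA.

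To show the letters of promoters with and without a peak, 4 are printed here, chosen with their values known, as the 250 bases before the RefSeq start (GRCm38.p6, the build of mm10), 5′ to 3′ on the gene's strand. Hoxd13 (chr2:74667975-74668224, plus strand) and Hoxa13 (chr6:52260881-52261130, minus strand), the most posterior genes of their clusters, had a promoter peak in all 4 lists. The strongest Hoxd13 peak covered the printed bases in each list, and that of Hoxa13 lay in the gene, downstream of the start, and reached them only in the H2A.Z siRNA list. Hoxa2 (chr6:52164832-52165081, minus strand), a patterning gene of the hindbrain and branchial arches, and Hoxb8 (chr11:96281655-96281904, plus strand) had none in any list. Capitals mark GGGCGG (the GC box bound by SP1) and CCAAT (the box bound by NF-Y) on either strand, overlapping matches included.
Hoxd13: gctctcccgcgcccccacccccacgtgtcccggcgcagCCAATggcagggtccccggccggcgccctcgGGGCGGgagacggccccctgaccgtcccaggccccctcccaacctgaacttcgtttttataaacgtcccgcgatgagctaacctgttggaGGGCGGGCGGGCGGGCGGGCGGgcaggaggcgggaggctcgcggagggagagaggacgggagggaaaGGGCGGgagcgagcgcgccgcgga
Hoxa13: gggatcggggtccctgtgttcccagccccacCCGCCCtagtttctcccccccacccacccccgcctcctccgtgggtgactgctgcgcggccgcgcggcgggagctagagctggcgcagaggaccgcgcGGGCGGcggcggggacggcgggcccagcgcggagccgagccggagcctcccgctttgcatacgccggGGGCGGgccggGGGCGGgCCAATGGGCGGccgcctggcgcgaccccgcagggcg
Hoxa2: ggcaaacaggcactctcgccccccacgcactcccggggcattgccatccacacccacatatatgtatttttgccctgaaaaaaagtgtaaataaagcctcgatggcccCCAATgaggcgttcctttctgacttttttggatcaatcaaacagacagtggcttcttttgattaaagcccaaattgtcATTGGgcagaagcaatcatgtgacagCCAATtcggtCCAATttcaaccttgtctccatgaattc
Hoxb8: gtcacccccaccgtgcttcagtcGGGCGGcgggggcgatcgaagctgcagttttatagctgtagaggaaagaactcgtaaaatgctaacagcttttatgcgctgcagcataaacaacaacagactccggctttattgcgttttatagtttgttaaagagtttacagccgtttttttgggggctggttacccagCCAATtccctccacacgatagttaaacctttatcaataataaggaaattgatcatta

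The Hoxd13 stretch held 7 GC boxes and 1 CCAAT box in 74.4% GC, and the Hoxa13 stretch 5 and 1 in 80.0% GC. The Hoxa2 stretch held no GC box and 4 CCAAT boxes in 46.4% GC, and the Hoxb8 stretch 1 of each in 44.4% GC. RefSeq promoters reaching from 250 bases before to 50 bases after the start were matched for 22 of the 38 genes (24 promoters). Of these, 62.5% held CCAAT, against 37.4% of all 32851 RefSeq promoters, and 41.7% held GGGCGG, against 35.7%. The contrast between the printed promoters did not hold for the family in these longer windows. Hoxa6, Hoxb1 and Hoxb4, with no peak in any list, had 62.0%, 59.33% and 58.0% GC, and Hoxa6 held 5 GC boxes. The Hoxd8 window had 46.67% GC and no GC box, but it reached only the upstream edge of the WT peak, at percentile 84.2. Around the highest-ranked summit of the Hoxd8 site, that of the H2A.Z siRNA list, GC was 79.1% with 3 GC boxes. Hoxd8 is thus no case of a peak centred on GC-poor sequence. These counts describe letters in a window and were not tested.

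A promoter peak was called for 24 of 38 Hox genes in the WT list, 24 in the Anp32e null list, 29 in the NT siRNA list and 32 in the H2A.Z siRNA list. The same count over all protein-coding genes gave 67.2%, 66.7%, 66.8% and 68.4%, against 63.2%, 63.2%, 76.3% and 84.2% of the Hox genes. The share of all genes thus moved by less than 2 percentage points between lists while the share of Hox genes was higher in both siRNA lists. There were 22 Hox genes with a promoter peak in all 4 lists, 6 in none and 10 in 1 to 3 lists. Over all protein-coding genes, 7.4% had a promoter peak in 1 to 3 of the 4 lists, against 26.3% of the Hox genes. All 10 of these variable genes lay in HoxB or HoxC.

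HoxA and HoxD had promoter peaks at the same genes in every list, and HoxB and HoxC at genes that differed between lists. HoxD had a promoter peak at 9 of 9 genes and HoxA at 8 of 10 genes in each of the 4 lists. HoxB had 3 of 10 in WT, 2 in Anp32e null, 4 with NT siRNA and 6 with H2A.Z siRNA. HoxC had 4 of 9 in WT, 5 in Anp32e null, 8 with NT siRNA and 9 with H2A.Z siRNA.

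**Figure D1:**
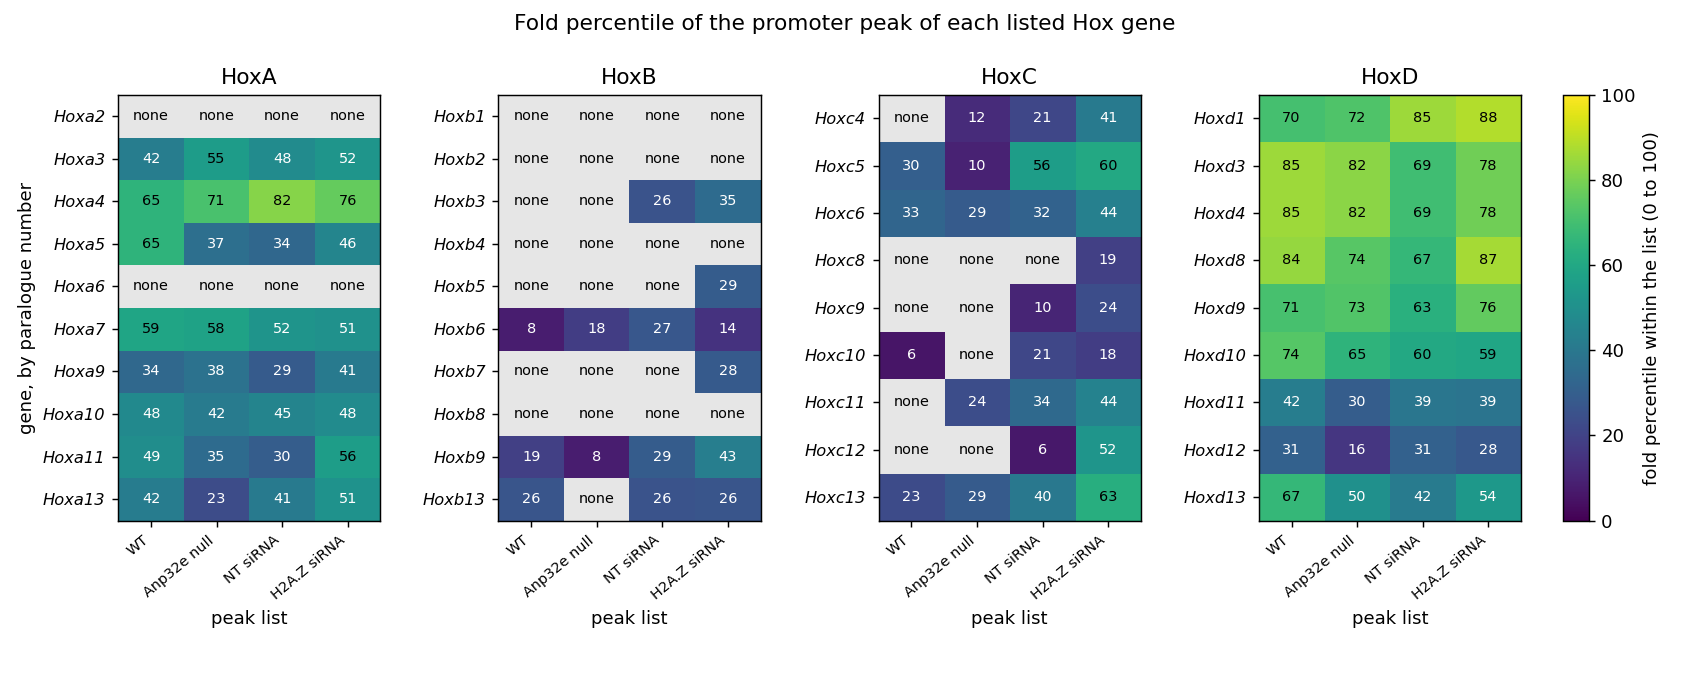
Fold percentile (0 to 100, colour and number) of the promoter peak of each listed Hox gene (rows, by paralogue number) in the 4 peak lists (columns), 1 panel per cluster; grey cells marked none had no peak within 1 kb of a start. HoxA and HoxD rows are filled in all lists except Hoxa2 and Hoxa6, and the HoxB and HoxC rows fill towards the siRNA lists.

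The same contrast held across whole clusters. Peaks covered 14.44% of HoxA bases in WT, 15.16% in Anp32e null, 16.07% with NT siRNA and 23.24% with H2A.Z siRNA, and 14.33%, 15.82%, 15.1% and 20% of HoxD bases in the same order. HoxB coverage was 2.18%, 1.55%, 4.64% and 8.02%, and HoxC coverage 3.19%, 6.45%, 8.6% and 15.07%. Over the genome the lists covered 2.081%, 2.006%, 2.104% and 3.063%. HoxA and HoxD coverage in the NT siRNA list was thus within 2 percentage points of both untransfected lists, whereas HoxB and HoxC coverage was higher in NT siRNA than in either untransfected list. With lists of equal length HoxD coverage was 13.56%, 15.82%, 10.78% and 14.32%, and HoxA coverage 13.83%, 15.16%, 13.28% and 20.66%. The NT siRNA value of each then lay below both untransfected lists. In all, 54 peaks lay in the clusters in WT, 60 in Anp32e null, 80 with NT siRNA and 89 with H2A.Z siRNA. The order of the siRNA lists turned to 80 against 75 with pileups scaled to the shallowest list, and to 64 against 56 with every list cut to its 82567 peaks of highest fold.

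**Figure D2:**
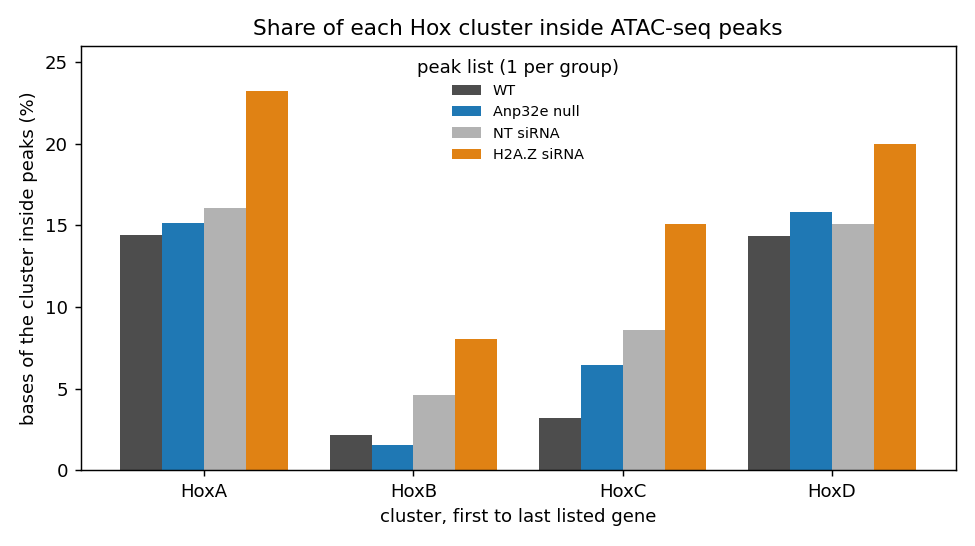
Percentage of bases of each Hox cluster (horizontal axis, first to last listed gene) that lay inside peaks (vertical axis), with 1 bar per peak list and no error bars because each group is 1 merged list. HoxA and HoxD bars are between 14.33% and 23.24%, and HoxB and HoxC bars between 1.55% and 15.07%.

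Depth differed between the lists. From the fold and p columns, the genome-wide background was 8.85 fragments in WT, 5.12 in Anp32e null, 3.88 with NT siRNA and 17.82 with H2A.Z siRNA, with 84040, 82567, 89272 and 108409 peaks on the assembled chromosomes. The NT siRNA list was thus the shallowest and had the highest pileup over background, a median of 13.92 over all its peaks, against 5.65 in WT, 8.4 in Anp32e null and 8.75 in H2A.Z siRNA. With every pileup scaled to the depth of the NT siRNA list and the peak threshold applied again, the H2A.Z siRNA list kept 32 Hox genes with a promoter peak, Anp32e null kept 24 and WT kept 22, having lost Hoxb6 and Hoxc10. With lists of equal length both siRNA lists had 28, NT siRNA having lost Hoxc12 and H2A.Z siRNA Hoxb6, Hoxc8, Hoxc9 and Hoxc10. Scaled HoxB coverage was 1.94% in WT, 1.55% in Anp32e null, 4.64% with NT siRNA and 7.27% with H2A.Z siRNA. The part of signal over background, transfection or the cell preparation in the higher siRNA counts was not tested. Because a peak pools many cells, fewer cells with an open site and less opening per cell cannot be told apart. In the label check, all 10 fibroblast markers (among them Col1a1, Col1a2, Col3a1 and Vim) had a promoter peak in each list, with a median percentile from 50.7 to 60.8, while the haematopoietic marker Ptprc and the pluripotency marker Nanog had none in any list. Pou5f1 and Spi1 had weak promoter peaks in the H2A.Z siRNA list, at percentiles 10.4 and 6.1. All 3 epithelial markers had a promoter peak in every list, with a median of 36.7 in WT, 30.6 in Anp32e null, 63.9 with NT siRNA and 58.3 with H2A.Z siRNA. Of 3 endothelial markers 3, 2, 3 and 3 had one, and of 3 neural markers Tubb3 alone.

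By fold, HoxD had the highest median promoter rank of the 4 clusters in each list. The median fold percentile over its genes was 70.8 in WT, 72.3 in Anp32e null, 63.4 with NT siRNA and 75.9 with H2A.Z siRNA. In HoxA the medians were 48.3, 39.6, 43.1 and 50.8. HoxC medians, over the genes with a peak, were 26.4, 23.5, 26.4 and 43.7, and HoxB medians 18.8, 13, 26.2 and 28.8. Over all protein-coding genes with a promoter peak the medians were 81.7, 80.0, 79.5 and 81.5, so that Hox promoters as a group ranked below the usual promoter by fold. By pileup the medians were 84.6, 86.5, 81.2 and 84.7 in HoxD and 70.8, 74.5, 85.1 and 88.4 in HoxA, which stood above HoxD in both siRNA lists.

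Hoxd3 and Hoxd4, which act in hindbrain and vertebral patterning, shared the peak with the highest WT percentile of the family, over the upstream start of both genes (chr2:74711727-74712530 in WT). Its percentile was 85.3 in WT, 82.5 in Anp32e null, 69.3 with NT siRNA and 78.4 with H2A.Z siRNA, with 159, 171, 164 and 650 fragments at the summit. For Hoxd4 this start belongs to a noncoding transcript, and the starts of its protein-coding transcripts (74721978 and 74727074 on chromosome 2) had no peak within 1 kb in any list. Hoxd8, expressed in the trunk, had percentiles of 84.2, 74.0, 66.7 and 86.6, with a peak 1422, 1594, 1448 and 1665 bp wide. Hoxd1, the most anterior HoxD gene, ranked higher by fold in both siRNA lists, at 70.5 in WT, 72.3 in Anp32e null, 85.3 with NT siRNA and 88.4 with H2A.Z siRNA. By pileup it stood at 60.9, 69.3, 65.1 and 64.3, so that both siRNA lists lay below Anp32e null.

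The posterior HoxD genes, which pattern the limb, the genitalia and the end of the trunk, had large pileups but, posterior to Hoxd10, lower fold percentiles. Hoxd9 stood at 70.8, 73.0, 63.4 and 75.9 and Hoxd10 at 73.6, 65.0, 60.2 and 59.1. Hoxd13, needed for digits, had percentiles of 66.6 in WT, 50.1 in Anp32e null, 41.6 with NT siRNA and 53.5 with H2A.Z siRNA. Ranked by pileup alone the same peaks stood at 92.8, 87.9, 88.1 and 91.3, with 209, 148, 238 and 1000 fragments. Hoxd12 had the lowest WT percentile of the cluster, with 31.1, 16.0, 31.0 and 27.5 in the 4 lists. Its pileup percentiles were 71.6, 72.9, 79.5 and 75.8. Hoxd11, which with Hoxa11 shapes the forearm, had fold percentiles of 42.4, 29.6, 39.2 and 38.6 and pileup percentiles of 82.4, 84.4, 87.9 and 88.4.

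The gap between both ranks went with the local background, the fragment level around a peak that MACS2 sets its summit against. At Hoxd13 the local background was 4.16 times the genome-wide value in WT, 5.24 times in Anp32e null, 9.9 times in NT siRNA and 9.5 times in H2A.Z siRNA. At Hoxd1 it was 1.09, 1.54, 1.33 and 1.02 times. Over the 17 HoxA and HoxD genes with a promoter peak the median local background was 2.22, 3.15, 7.68 and 6.73 times the genome-wide value, and the pileup percentile exceeded the fold percentile at 15, 14, 15 and 15 of them. Over the HoxB and HoxC genes with a peak the median was 1.07, 1.06, 1.4 and 1.33 times. Over all protein-coding genes with a promoter peak it was 1.99, 2.5, 4.61 and 4.2 times. Peaks of HoxA and HoxD thus ranked lower by fold than by fragments. The median pileup percentile over HoxA and HoxD genes was 78.1, 77.0, 81.8 and 87.6, against 86.3, 85.6, 88.4 and 89.7 over all promoters with a peak.

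**Figure D3:**
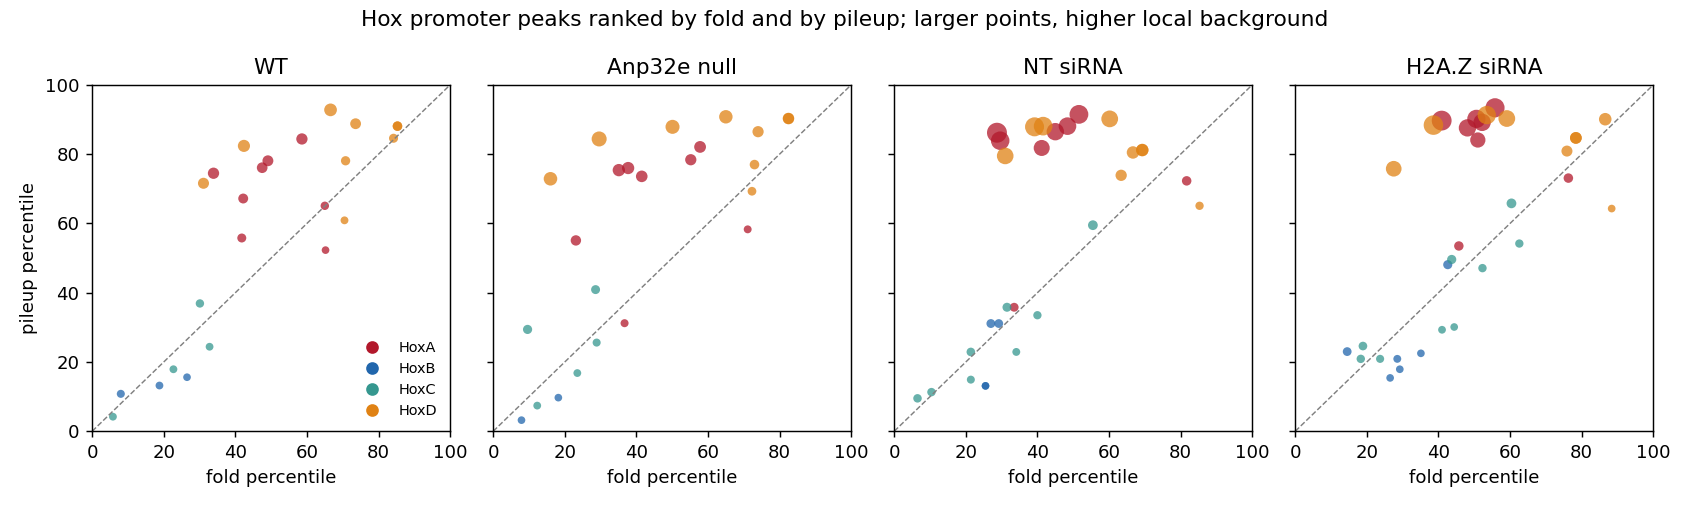
Pileup percentile (vertical axis, 0 to 100) against fold percentile (horizontal axis, 0 to 100) of each Hox promoter peak, 1 panel per list, coloured by cluster, with point area growing with the local background and the dashed line marking equal ranks. HoxA and HoxD points with large area lie above the line, at 15 of 17 genes in WT, and HoxB and HoxC points lie near it at low ranks.

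Within HoxD the fold percentile was lower at higher paralogue numbers. Spearman's correlation of both across its 9 genes, given as a description since neighbouring genes share background and 2 of them share a peak, was -0.68 in WT, -0.78 in Anp32e null, -0.95 with NT siRNA and -0.9 with H2A.Z siRNA. Ranked by pileup the same correlation was 0.28, 0.01, 0.48 and 0.48, so that no such order was seen in fragments. Spearman's correlation of paralogue number with local background was 0.85, 0.79, 0.81 and 0.81. In HoxA, over 8 genes, the correlation with fold percentile was -0.43, -0.74, -0.52 and -0.14. In HoxC it was -0.07 over 8 genes in NT siRNA and 0.3 over 9 genes in H2A.Z siRNA, and in the other lists too few genes had a peak.

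By block, posterior genes had a promoter peak most often. Of 16 posterior genes, 13 had one in WT, 12 in Anp32e null and all 16 in both siRNA lists. Of 11 anterior genes, 5, 6, 7 and 7 had one, and of 11 central genes, 6, 6, 6 and 9. Over all protein-coding genes the shares were 67.2%, 66.7%, 66.8% and 68.4%. In HoxC the order did not hold in the untransfected lists. There 2 of 5 posterior and 2 of 3 central genes had a peak in each, and the 1 anterior gene had one in Anp32e null. In HoxD every gene had one in every list. The anterior genes without a peak were mostly those of HoxB and HoxC, where 0 of 5 had one in WT, 1 in Anp32e null and 2 in each siRNA list, whereas 5 of 6 anterior genes of HoxA and HoxD had a peak in every list.

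Over all peaks of a cluster, promoters or not, the median fold percentile was 42.0, 35.1, 28.7 and 42.0 in HoxA and 42.4, 29.8, 24.8 and 34.7 in HoxD. The median local background was 2.2, 3.08, 8.29 and 8.41 times the genome-wide value at these HoxA peaks and 2.79, 4.74, 7.68 and 7.26 times at those of HoxD. Hoxa4 had the highest WT percentile of the HoxA genes, at 65.2, and stood at 71.1 in Anp32e null, 81.7 with NT siRNA and 76.3 with H2A.Z siRNA. Hoxa9, a gene of the posterior trunk also known from myeloid leukaemia, had the lowest, at 33.9, 37.7, 28.7 and 40.9, although its pileup stood at 74.5, 76.0, 86.2 and 89.7. Hoxa10, required for uterine and lumbar patterning, differed little between lists, at 47.5, 41.5, 45 and 48.1. Hoxa11 had 104, 87, 188 and 1161 fragments, fold percentiles of 49.1, 35.1, 29.6 and 55.8, and a peak 1630, 1733, 1625 and 1765 bp wide. Hoxa13, a gene of the hand and foot, stood at 41.8, 23.1, 41.2 and 51.0, and Hoxa5 at 65.0, 36.7, 33.5 and 45.7. Hoxa7, a trunk gene, stood at 58.6, 57.8, 51.6 and 50.6. The Hoxa3 peak lay at its upstream start, between Hoxa6 and Hoxa7, at 42.2, 55.2, 48.4 and 52.2. Hoxa2 and Hoxa6 had no promoter peak in any list.

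HoxB was the sparsest cluster. Hoxb1, Hoxb2 and Hoxb4, anterior genes active in the hindbrain, and Hoxb8 had no promoter peak in any list. Hoxb6 had one in all 4 lists, with percentiles of 8.0, 18.2, 27.0 and 14.5 and 26, 19, 33 and 74 fragments. Hoxb9 had one in all 4 as well, at 18.8, 7.9, 29.2 and 42.6, and its width was 810 bp in WT, 392 in Anp32e null, 915 with NT siRNA and 1782 with H2A.Z siRNA. Hoxb13, a gene of the tail bud and prostate, had a peak in WT (percentile 26.5, 28 fragments), none in Anp32e null, and peaks in NT siRNA (25.5, 21 fragments) and H2A.Z siRNA (26.5, 61 fragments). It had the highest WT percentile of HoxB and Hoxb6 the lowest. Hoxb3 had a peak in both siRNA lists only, at 25.5 and 35.1, near the start of a noncoding transcript. Hoxb5 and Hoxb7 had a peak in the H2A.Z siRNA list alone, at 29.2 and 28.5, with 65 and 70 fragments against a list background of 17.82.

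HoxC, whose genes pattern the trunk, hindlimb and skin appendages, showed the most genes that differed between lists. Hoxc13, required for hair, had a peak in all lists, at 22.7 in WT, 28.9 in Anp32e null, 40 with NT siRNA and 62.6 with H2A.Z siRNA. Hoxc5 stood at 30.1, 9.6, 55.5 and 60.4. Hoxc6 had the highest WT percentile, with 32.8, 28.6, 31.5 and 43.7, at starts of noncoding transcripts. Hoxc10, a hindlimb gene, had the lowest WT percentile, at 5.8 with 23 fragments. It had no peak in Anp32e null and stood at 21.4 with NT siRNA and 18.3 with H2A.Z siRNA, at a site nearer to its start than the WT peak.

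Hoxc4 and Hoxc11 had no promoter peak in WT and had peaks in the other 3 lists. Hoxc4 stood at 12.3 in Anp32e null, 21.4 with NT siRNA and 41.0 with H2A.Z siRNA, and Hoxc11 at 23.5, 34.1 and 44.4. The Hoxc4 peak of Anp32e null and those of the siRNA lists were separate sites. Hoxc9, a motor column and trunk gene, and Hoxc12 had a peak in the siRNA lists only. Hoxc9 stood at 10.4 with NT siRNA and 23.7 with H2A.Z siRNA, and Hoxc12 at 6.5 and 52.3. Upstream of Hoxc12 a site (chr15:102934616-102936064) was called in all 4 lists, at 18.6, 37.2, 55.9 and 52.3, and only the wider H2A.Z siRNA peak reached within 1 kb of the start. Hoxc8 had a peak in H2A.Z siRNA alone, at 18.9 with 77 fragments. Where a variable HoxB or HoxC gene had a peak in WT or Anp32e null, that peak held 18 to 28 fragments, so a gene without a peak was not shown to be closed.

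**Figure D4:**
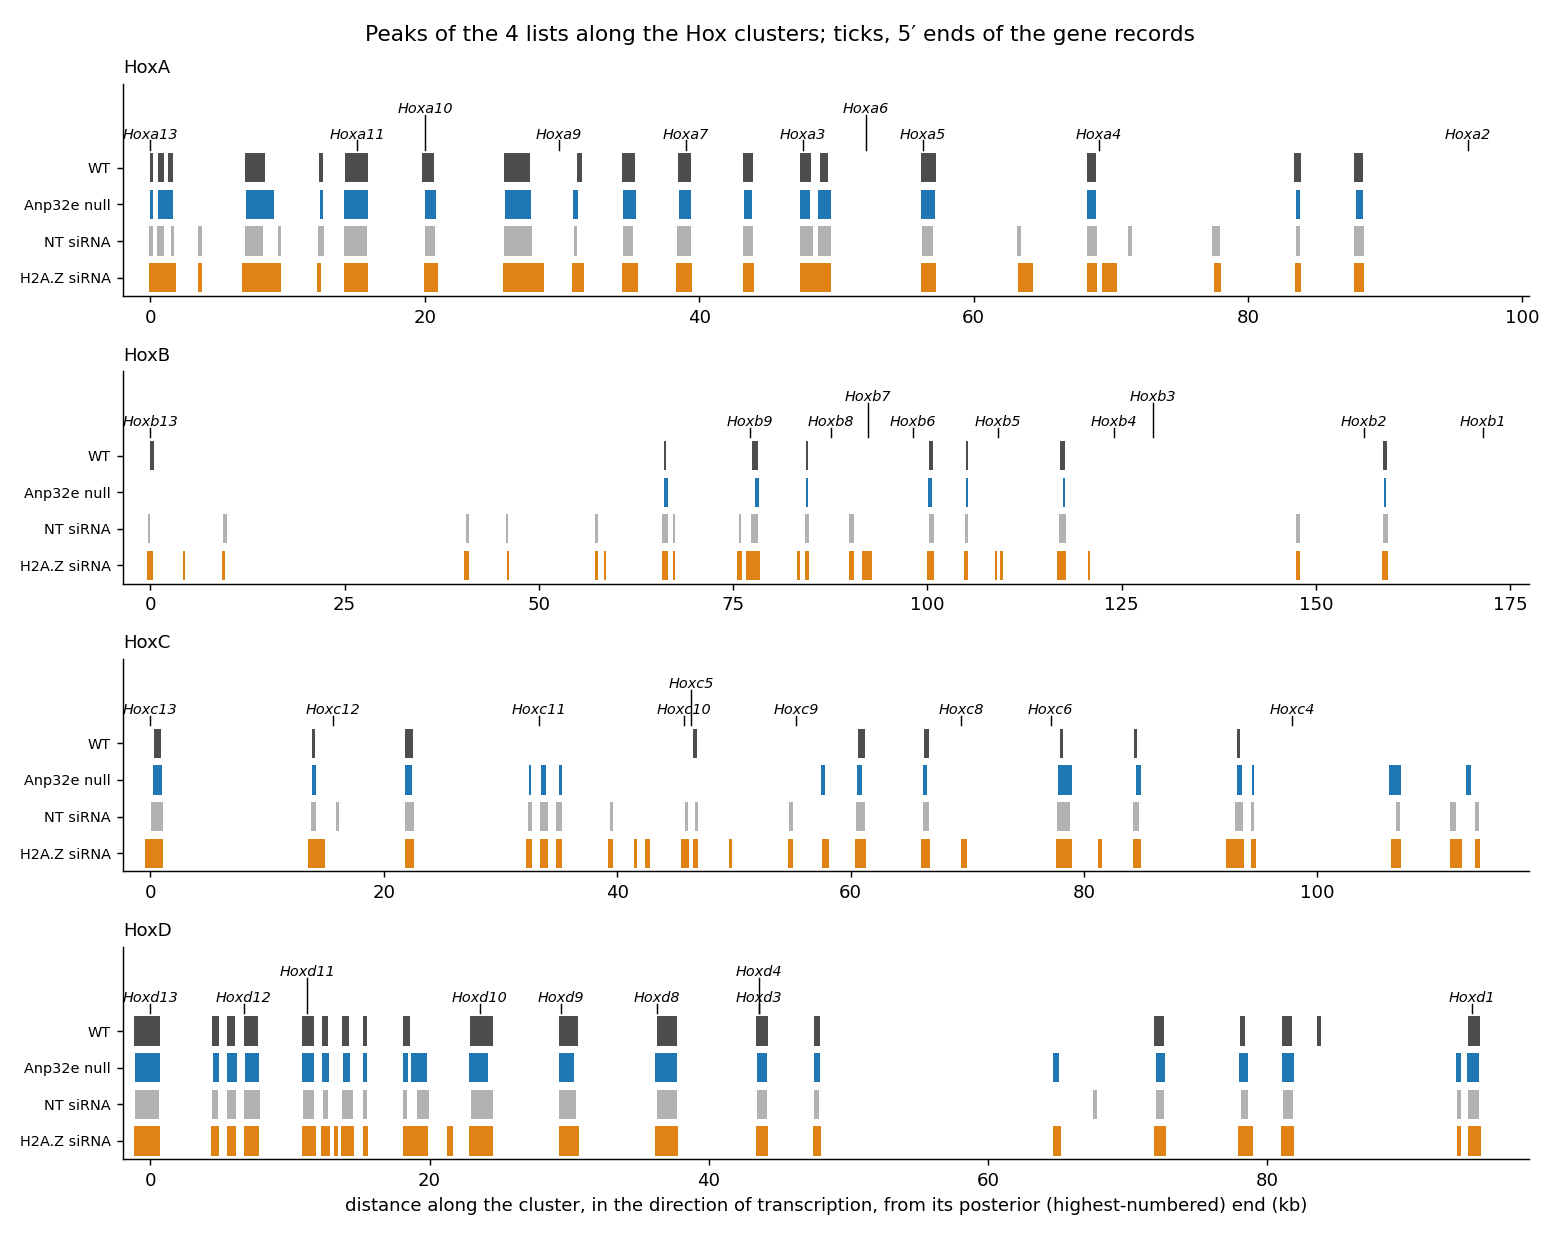
Peaks of the 4 lists (rows, coloured blocks, to scale) along each Hox cluster, by distance in kb from its posterior end in the direction of transcription (horizontal axis), with ticks at the 5′ end of each gene record. HoxA holds 18 peaks in WT and 19 in H2A.Z siRNA and HoxD 19 and 22, whereas HoxB holds 8 and 23 and HoxC 9 and 25. With lists of equal length, not drawn, these counts were 16 and 15 in HoxA, 17 and 14 in HoxD, 8 and 14 in HoxB and 9 and 13 in HoxC.

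The median width of a Hox promoter peak was 804 bp in WT, 783.5 in Anp32e null, 734 with NT siRNA and 1027.5 with H2A.Z siRNA, against 1149, 1116, 1083 and 1294.5 over all protein-coding promoters with a peak. Hox promoter peaks at least 1500 bp wide numbered 3 of 24 in WT (Hoxa11, Hoxd10 and Hoxd13), 3 of 24 in Anp32e null (Hoxa11, Hoxd8 and Hoxd13) and 3 of 29 in NT siRNA (Hoxa11, Hoxd10 and Hoxd13). In the H2A.Z siRNA list there were 8 of 32, with Hoxa3, Hoxa13, Hoxb9, Hoxc13, Hoxd8 and Hoxd10 beside Hoxa11 and Hoxd13. Over all promoter peaks the share at least 1500 bp wide was 21.9%, 19.1%, 17.3% and 33.2%. The wide Hox peaks were thus a smaller share than among all promoters in each list.

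The widest peak of HoxA lay over the downstream starts of Hoxa10 in WT (chr6:52233232-52235069, 1838 bp), NT siRNA (2000 bp) and H2A.Z siRNA (2978 bp), and between Hoxa11 and Hoxa13 in Anp32e null (chr6:52251859-52253897, 2039 bp). The widest HoxD peak was that of Hoxd13 in all 4 lists, 1834, 1776, 1690 and 1845 bp wide. The widest HoxB peak was that of Hoxb9 in WT, NT siRNA and H2A.Z siRNA and lay in an intron of Hoxb6 in Anp32e null (chr11:96294344-96294917, 574 bp). In HoxC it lay between Hoxc12 and Hoxc11 in WT (chr15:102942962-102943619, 658 bp), at Hoxc6 in Anp32e null (1154 bp) and NT siRNA (1115 bp), and at Hoxc13 in H2A.Z siRNA (1523 bp).

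The comparison of Anp32e null with WT MEFs asked how loss of the H2A.Z chaperone alters accessibility. Of 22 Hox genes with a promoter peak in both lists, 2 had a percentile at least 10 points higher in Anp32e null and 9 at least 10 points lower. Over 14317 protein-coding genes the corresponding shares were 6.52% and 11.1%. The largest negative difference was -28.3 points at Hoxa5, a regulator of lung and skeletal development, whose peak (chr6:52203613-52204705 in WT) held 70 fragments in WT and 29 in Anp32e null. Next were Hoxc5 at -20.5 points and Hoxa13 at -18.7 points. The largest positive differences were 13.1 points at Hoxa3, 10.2 at Hoxb6 and 6.2 at Hoxc13. The median change was -5.1 points over the Hox genes and -1.4 over all genes with a peak in both lists. It was -6.0 over the 10 fibroblast markers, 3 of which stood at least 10 points lower, and their part in the Hox change was not tested.

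That median depended on the scale. Ranked by pileup, the median change of the same peaks was 1.4 points, against -0.4 over all genes. The log2 ratio of pileup over genome-wide background had a median of 0.68 over the Hox genes and 0.65 over all genes. Hoxa5 was lower in Anp32e null on each of these scales, with a pileup percentile of 65.1 in WT and 31.2 in Anp32e null and a log2 ratio of -0.48, the lowest of the family. Hoxc4 and Hoxc11 had a promoter peak in Anp32e null and none in WT, and Hoxb13 and Hoxc10 the reverse, beside 1.4% and 1.89% of all protein-coding genes.

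**Figure D5:**
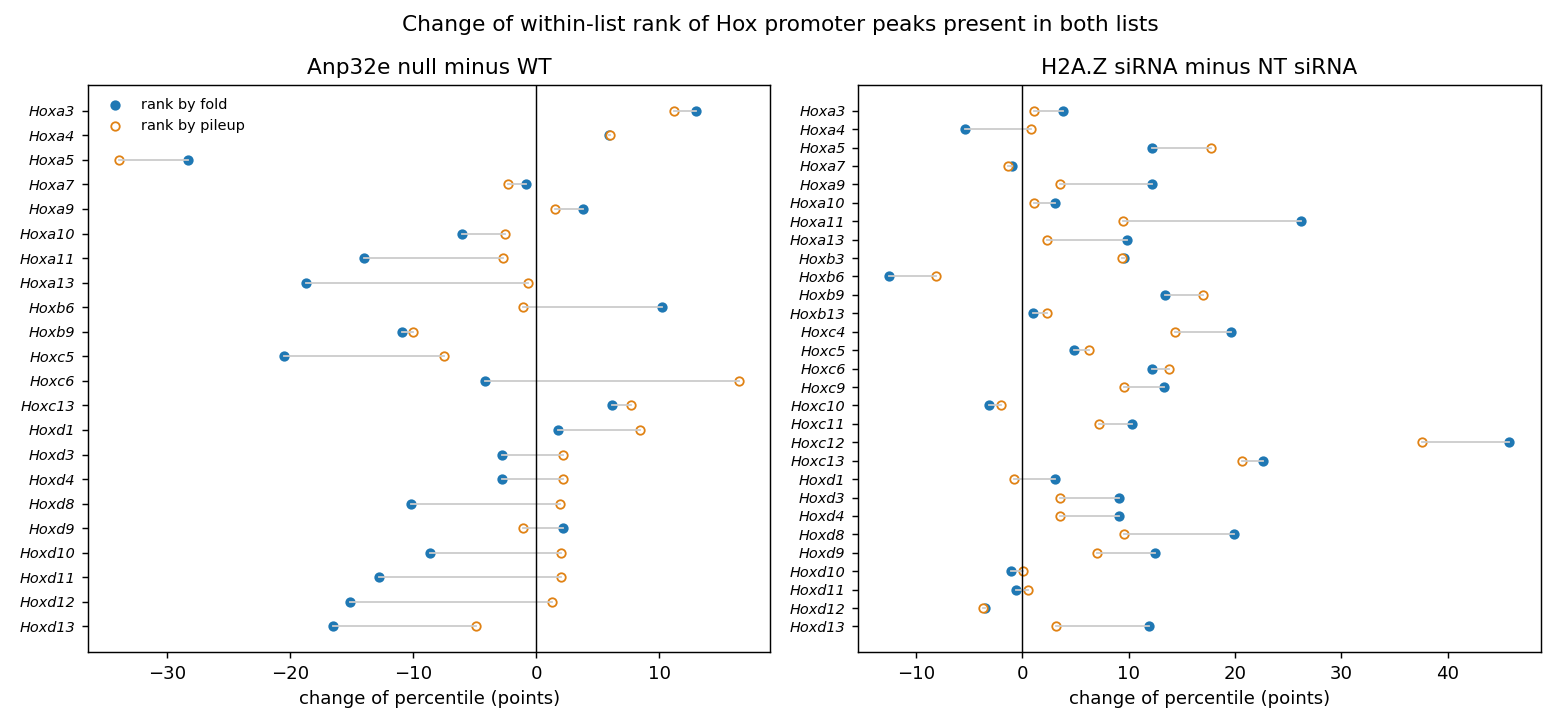
Change of within-list percentile (horizontal axis, points) of each Hox promoter peak present in both lists (vertical axis), for Anp32e null minus WT (left) and H2A.Z siRNA minus NT siRNA (right), with filled points for the rank by fold and open points for the rank by pileup. In the left panel Hoxa5 stands apart, at a change of -28.3 by fold, and Hoxc12 in the right panel, at 45.8.

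The comparison of H2A.Z siRNA with NT siRNA, both in Anp32e null MEFs, asked what knockdown of H2A.Z did. Of 29 Hox genes with a promoter peak in both lists, 13 had a percentile at least 10 points higher in H2A.Z siRNA and 1, Hoxb6, at least 10 points lower. Over 14559 protein-coding genes the shares were 14.1% and 2.56%. The largest positive differences were 45.8 points at Hoxc12, 26.2 at Hoxa11 and 22.6 at Hoxc13. That of Hoxc12 compares different peaks, since the NT siRNA peak within its window was 257 bp wide with 19 fragments and the H2A.Z siRNA peak was 1449 bp wide with a summit 1523 bp from the start, at the upstream site that the NT siRNA list held at 55.9. The largest negative differences were -12.5 points at Hoxb6, -5.4 at Hoxa4 and -3.4 at Hoxd12. The median change was 9.7 points over the Hox genes and 2.1 over all genes with a peak in both. It was 9.2 over the 10 fibroblast markers, 4.8 over the 3 epithelial markers and 28.2 over the 3 endothelial markers, with Pecam1 at 47.6 and 77.2 and Cdh5 at 26.7 and 54.9, and the part of other cell types was not tested.

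This difference in rank was not seen in fragments scaled by background, where the median log2 ratio was -0.31 over the Hox genes and -0.31 over all genes. Ranked by pileup the median change was 3.5 points, against 1.1. With every list cut to its 82567 peaks of highest fold, the median change by fold was -0.4 points. All 29 Hox promoter peaks were wider in H2A.Z siRNA, with a median ratio of 1.25, and so were 13749 of the 14559 over all genes, with a median ratio of 1.14. Hoxb5, Hoxb7 and Hoxc8 had a promoter peak in H2A.Z siRNA and none in NT siRNA, beside 2.06% of all genes, and no Hox gene had the reverse, beside 0.483%. With lists of equal length this became 3 against 3, with Hoxb5, Hoxb7 and Hoxc12 in H2A.Z siRNA alone and Hoxb6, Hoxc9 and Hoxc10 in NT siRNA alone. The H2A.Z siRNA list was also the deepest, and the part of depth in these additions beyond the scaling above was not tested.

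NT siRNA and untransfected cells of the null genotype differed at HoxB and HoxC. This comparison shares a list with each of those above. Hoxb3, Hoxb13, Hoxc9, Hoxc10 and Hoxc12 had a promoter peak in NT siRNA and none in Anp32e null, beside 2.03% of all genes, and no Hox gene had the reverse, beside 1.85%. All 7 HoxB and HoxC genes with a peak in both lists had a higher percentile in NT siRNA, by 2.9 to 45.9 points. Of the 17 HoxA and HoxD genes 6 did, and of 14219 protein-coding genes 6558. In pileup over genome-wide background the order was the other way, with a median log2 ratio of 0.83 over the HoxB and HoxC genes, 1.3 over the HoxA and HoxD genes and 1.09 over all genes. Ranked by pileup, the HoxB and HoxC genes again had the larger median change, 7.9 points, against 4.5 over the HoxA and HoxD genes and 1.0 over all genes. At least 10 points higher in NT siRNA stood 4 of the 7 HoxB and HoxC genes and 4 of the 17 HoxA and HoxD genes, beside 13.5% of all genes. At least 10 points lower stood 0 and 2 of them, beside 12.3%. The epithelial markers also ranked higher by fold in NT siRNA. Epcam stood at 30.6 in Anp32e null and 50.8 with NT siRNA, Cdh1 at 38.5 and 68.2 and Krt8 at 23.7 and 63.9. The part of these markers in the HoxB and HoxC difference was not tested. Transfection cannot be told apart from culture or library in this pair.

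Merged over the 4 lists, the clusters held 94 sites of 128522 in the genome. Of these, 48 (51.1%) were called in all 4 lists, against 45.92% of sites over the genome, and 16 (17.0%) in both siRNA lists only, against 8.99%. In HoxA 15 of 20 sites and in HoxD 18 of 24 were called in all lists, in HoxB 7 of 23 and in HoxC 8 of 27. The 16 sites of both siRNA lists lay 8 in HoxB, 5 in HoxC, 3 in HoxA and none in HoxD. Sites within 1 kb of a listed Hox start numbered 13 in HoxA, 7 in HoxB, 14 in HoxC and 17 in HoxD.

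Some of the strongest cluster sites lay away from Hox starts. A HoxB site in an intron of Gm53, between Hoxb13 and Hoxb9 (chr11:96260208-96260987), stood at 29.3 in WT, 66.5 in Anp32e null, 87.6 with NT siRNA and 83.2 with H2A.Z siRNA. An intergenic site between Hoxb9 and Hoxb8 (chr11:96278528-96279061) stood at 4.5, 14.7, 79.7 and 77.3, with 21, 18, 80 and 251 fragments. A HoxC site in an intron of Hoxc5 between Hoxc9 and Hoxc8 (chr15:102987162-102987948) stood at 39.9, 25.7, 81.2 and 68.4. These sites were chosen after their values were seen. They ranked in both siRNA lists above every HoxB and HoxC promoter peak of the same list. In HoxA, a site at a UTR of Hoxa3 (chr6:52172419-52173131) and chosen in the same way, stood at 78.7, 85.5, 84.3 and 79.8, above every HoxA promoter in each list.

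The 3 sites of highest percentile that were not called in all 4 lists are printed as 151 bases around the summit (mm10, plus strand), with CpG dinucleotides in capitals, to show what kind of sequence was called in some lists only. The first was intergenic between Hoxb13 and Hoxb9 (chr11:96235003-96235153) and was called in both siRNA lists, at 53.8 for NT and 59.6 for H2A.Z. The next lay at the end of the coding sequence of Hoxb8 (chr11:96284331-96284481), at 34.2 and 49.9 in the siRNA lists. The last lay in coding sequence of Hoxc11 (chr15:102954641-102954791), at 23.5 in Anp32e null, 34.1 with NT siRNA and 44.4 with H2A.Z siRNA.
Hoxb13 to Hoxb9 site: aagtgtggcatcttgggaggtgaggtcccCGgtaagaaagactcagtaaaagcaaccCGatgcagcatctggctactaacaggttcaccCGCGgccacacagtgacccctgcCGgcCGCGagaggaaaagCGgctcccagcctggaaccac
Hoxb8 coding site: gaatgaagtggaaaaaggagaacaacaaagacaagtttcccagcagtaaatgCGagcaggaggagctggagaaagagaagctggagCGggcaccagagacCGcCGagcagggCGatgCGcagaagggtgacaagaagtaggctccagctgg
Hoxc11 coding site: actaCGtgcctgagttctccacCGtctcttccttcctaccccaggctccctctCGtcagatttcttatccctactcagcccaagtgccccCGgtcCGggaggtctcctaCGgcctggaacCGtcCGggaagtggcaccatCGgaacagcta

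In windows reaching 100 bases to either side of the summits, Hox cluster sites had a median GC content of 58.2% and a CpG observed over expected ratio of 0.66, against 48.8% and 0.21 over all sites and 63.2% and 0.77 over sites at protein-coding starts. Sites in all 4 lists had 60.2% and 0.75, and sites in 1 to 3 lists 55.5% and 0.59. The AP-1 motif TGANTCA, bound by Fos and Jun proteins, was in 5.3% of the 94 windows, against 29.4% of all sites and 8.0% of sites at protein-coding starts. GGGCGG was in 22.3%, against 9.8% and 44.5%, and CCAAT in 20.2%, against 24.0% and 25.2%. The PBX-HOX motif TGATTNAT was in 2 windows, in an intron of Hoxc4 and one of Hoxd11, which is 2.1% against 4.7%. The DR5 retinoic acid motif, written as GNTCANNNNNNGNTCA, was in none, against 0.7%. No match means only that these letters were absent from the window. All motifs were read on both strands.

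The core of the motif of CTCF, a protein that bounds chromatin domains and is known to bind between Hox genes, was searched as CCANNAGNNGGC and found in 5 of 94 windows (5.3%, against 6.3% of all sites). The matches in sites called in all 4 lists are printed as 29 bases on the plus strand, with the core in capitals, since these mark where a known boundary motif coincides with an open Hox site. They lie at Hoxa7 (chr6:52221800-52221828), Hoxa10 (chr6:52240532-52240560), in coding sequence of Hoxb6 (chr11:96299345-96299373) and at Hoxd3os1 (chr2:74715912-74715940). The fold percentiles of these sites were 58.6, 57.8, 51.6 and 50.6 at Hoxa7, 47.5, 41.5, 45 and 48.1 at Hoxa10, 8.0, 18.2, 27.0 and 14.5 at Hoxb6, and 56.0, 61.1, 68.1 and 63.3 at Hoxd3os1.
Hoxa7: agccacactGCCATCTCCTGGaattttct
Hoxa10: cgggagtgcGCCATCTCGTGGcggctgcg
Hoxb6: tcctattacCCACCAGCCGGCggcggcta
Hoxd3os1: gagctttgtCCAGGAGGAGGCgctgtagg

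Genes that act with the Hox proteins or on the clusters had promoter peaks in nearly every case, beside 67.2%, 66.7%, 66.8% and 68.4% of all protein-coding genes. Over all genes with a promoter peak the median percentiles were 81.7, 80.0, 79.5 and 81.5. The 9 genes of the cofactor list (Pbx, Meis and Pknox genes, whose products bind DNA with Hox proteins) had a peak in all lists, with medians of 81.9, 75.4, 69.9 and 75. The 15 Polycomb genes did too, at 79.2, 78.7, 75.7 and 81.4, among them Ezh2, the H3K27 methyltransferase, at 94.9, 93.5, 84.7 and 87.7. Of 9 trithorax genes, Dot1l lacked a peak in WT, and Kmt2a, a Hox activator rearranged in leukaemia, stood at 66.7, 44.4, 48.3 and 63. Of 9 upstream activators, 8 had a peak in each list, Cdx1 lacking one in WT, Anp32e null and H2A.Z siRNA and Cdx4 in NT siRNA, with medians of 49.7, 38.7, 42.8 and 52.4, and Cdx2, a direct activator of trunk Hox genes, stood at 27.8, 12.6, 32.6 and 31.0.

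In Anp32e null against WT, 4 of 8 upstream activators with a peak in both lists stood at least 10 points lower, as did 3 of 15 Polycomb genes, 1 of 8 trithorax genes and 1 of 9 cofactors, and 1 cofactor stood higher, beside 11.1% lower and 6.52% higher over all genes. In H2A.Z siRNA against NT siRNA, 5 of 15 Polycomb genes, 3 of 7 upstream activators, 2 of 9 trithorax genes and 1 of 9 cofactors stood at least 10 points higher and none lower, beside 14.1% and 2.56% over all genes. Of 8 genes flanking the clusters, 7 had a peak in all lists and none moved by 10 points in either comparison. Lnpk and Mtx2, on either side of HoxD, stood at 99, 97.9, 97.8 and 96.5 and at 98.2, 97.2, 99.2 and 99.1, while Evx2, next to Hoxd13, stood at 9.3, 0.1, 0.4 and 4.1.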

How the data were processed

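Groups were taken from the sample labels. The authors aligned paired-end reads to mm10 with Bowtie2, removed duplicates with Picard, merged the libraries of a group and called peaks with MACS2. Each deposited list gives per peak the fold (a ratio of pileup to local background, a pseudocount of 1 on both), p- and q-values as −log10, and the summit offset. The deposited offset in bp is of another kind than these and was used for position only. Local background raises or lowers the fold at equal fragments.

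Fragment pileup and background were recovered from fold and −log10 p. The recovery was tested on simulated data, and all pileups came out whole within 0.05. Peaks overlapping a window of 1 kb around any GENCODE M21 start by at least 1 bp were assigned, the highest fold percentile being kept. Groups of 1 list allowed no test. Python 3.11.15, pandas 2.3.3 and scipy 1.17.1 were used.

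Full values were given by a rule: genes without a peak in some list, the highest and lowest WT percentile of each cluster, the 3 largest rises and falls, the widest peaks, and the 3 strongest sites not in all lists. The members, lists and rules were chosen with earlier results of these data known. A Hox gene is not reported here. Alternatives covered peak threshold, list length, window, starts, ranking, depth and cluster ends.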

Additional observations from a re-analysis of the deposited data

How the results depend on the processing

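Over 11 alternative settings, 126 of 140 recomputed summaries kept their size and their direction. Size was kept within 1.5 times for a count, or within 1 SD over the 4 clusters for a median or share. That SD holds the contrast of HoxA and HoxD with HoxB and HoxC and is no measure of error. For the share of cluster bases inside WT peaks it was nearly as large as the share itself. The number kept is thus a weak check for shares and median percentiles. Cutting every list to its 82567 peaks of highest fold left 56 cluster peaks in H2A.Z siRNA in place of 89, below the 64 left in NT siRNA, and the median change from NT siRNA to H2A.Z siRNA turned to -0.4 points from 9.7. Ranking by −log10 p gave a median percentile of 70.7 in NT siRNA, and median changes of 0.1 points in Anp32e null against WT, in place of -5.1, and 5.3 in H2A.Z siRNA against NT siRNA. Ranking by pileup, with the promoter peak chosen again by pileup and chosen as a setting after seeing the data, gave medians of 70.0 in WT, 74.5 in Anp32e null and 72.3 in NT siRNA, and changes of 0.9 and 3.5 points. Scaling all lists to the depth of NT siRNA gave changes of -1.7 and 3.7 points. The log2 ratio of pileup over background, less the median of all genes, gave 0.02 and 0.01. The direction of the rank change in Anp32e null thus rests on ranking by fold, and that in H2A.Z siRNA on list length, and the cause was not tested.

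Starts of protein-coding transcripts alone, also a setting added after seeing the data, left 22, 22, 26 and 29 genes with a promoter peak, without Hoxc6 and Hoxd4 in all lists and Hoxb3 in the siRNA lists. A −log10 q of at least 5 left 21, 21, 27 and 32. No paired analysis was possible because 1 merged list per group was deposited, and for that reason no replicate could be left out either. Weak peaks at HoxB and HoxC, with fewer than 40 fragments in the untransfected and NT siRNA lists in most cases, limit what absence from a list shows.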
